A study of Sus scrofa with 23 samples.

Results

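The genes described here encode the subunits of voltage-gated calcium and sodium channels. Members were the rows of the deposited count table whose pig Ensembl symbol starts with CACNA, CACNB or CACNG, or is SCN followed by a number and A or B, with at least 10 counts in at least 5 libraries. Of 25880 genes in the table, 37 fit the name and 32 also met the count minimum. The 32 comprise 7 sodium channel alpha subunits, 2 sodium channel beta subunits, 9 calcium channel alpha1 subunits (3 L-type, 3 of the P/Q, N and R type, and 3 T-type), 3 alpha2delta, 4 beta and 7 gamma subunits. The 5 genes under the minimum were CACNA2D4, CACNG1, SCN4A, SCN10A and SCN11A. Channel genes that no symbol in the table matched, CACNA1C among them, were not analysed here. All 32 members passed the separate filter on low counts that preceded the tests.

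RNA was measured by poly-A selected sequencing in prefrontal cortex of 23 adolescent female pigs weighing 20 kg, with 1 library per animal. Each animal had received a single intravenous injection while awake, either saline or psilocybin at 0.08 mg/kg, and was killed with pentobarbital 1 day or 1 week later. The groups were saline 1 day (n = 5), psilocybin 1 day (n = 6), saline 1 week (n = 6) and psilocybin 1 week (n = 6). The labels also assign 11 libraries to batch 1 and 12 to batch 2, crossed with the groups, without saying what a batch stands for. Psilocybin is the prodrug of psilocin, an agonist of serotonin receptors.

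Voltage-gated sodium channels open on depolarisation and carry the rising phase of the action potential. A single alpha subunit forms the pore, and beta subunits alter gating and bind the channel to adhesion and cytoskeletal proteins. Voltage-gated calcium channels turn depolarisation into calcium entry, which drives transmitter release at terminals and signalling in dendrites. Their alpha1 subunit forms the pore, alpha2delta and beta subunits set trafficking and gating, and most gamma subunits expressed in brain are better known as TARPs, auxiliary subunits of AMPA-type glutamate receptors.

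Libraries held 9504421 to 18654626 counts assigned to genes, and the 32 members together took 0.302% ± 0.0284 of them (SD, n = 23). The tissue label was checked against marker genes: 5 matched pan-neuronal markers summed to 4601 to 6008 CPM (each count relative to its library's scaled total) and 6 excitatory neuron markers to 4041 to 5667 CPM. The sum of oligodendrocyte markers varied more, from 3466 to 22270 CPM. In bulk tissue, fewer cells of a type and less RNA per cell cannot be told apart. The 3 libraries with the highest share of counts in ribosomal protein genes were animal 5 of the saline 1 day group (1.49%), animal 1 of the saline 1 week group (1.28%) and animal 6 of the psilocybin 1 week group (1.14%), and these also had the 3 lowest shares of counts in channel genes (0.239%, 0.252% and 0.271%, against up to 0.360% elsewhere). The first was the lowest of all 23 libraries for 7 members and the second for 12. The balance of signs or the count of calls in each comparison is therefore also given without these 3 libraries; levels, shares and ratios include all 23.

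Accessory subunits were more abundant per unit length than pore-forming ones at the upper end of the family. The TARP CACNG7 averaged 63.2 ± 5.18 CPM per kilobase of exon (SD, n = 23). SCN2B, a sodium channel beta subunit, averaged 61.7 ± 9.83 CPM per kilobase and was above CACNG8 in 21 libraries. Beneath these came CACNG8 (49.8 ± 5.00), CACNG3 (44.8 ± 3.43) and CACNB3 (33.8 ± 2.81), the last being a cytoplasmic beta subunit of calcium channels. CACNA1A, which forms the P/Q-type pore of many cortical terminals, had the highest mean of the pore-forming subunits measured, at 22.1 ± 4.57 CPM per kilobase. The pore-forming SCN2A was close at 18.7 ± 5.52, with overlapping mean ± 1 SD ranges, and CACNA1A exceeded it in 16 of 23 libraries. CACNB3 carries a limit: 47.5% of its exon bases overlap DDX23, a gene on the opposite strand, and counting ignored strand.

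**Figure D1:**
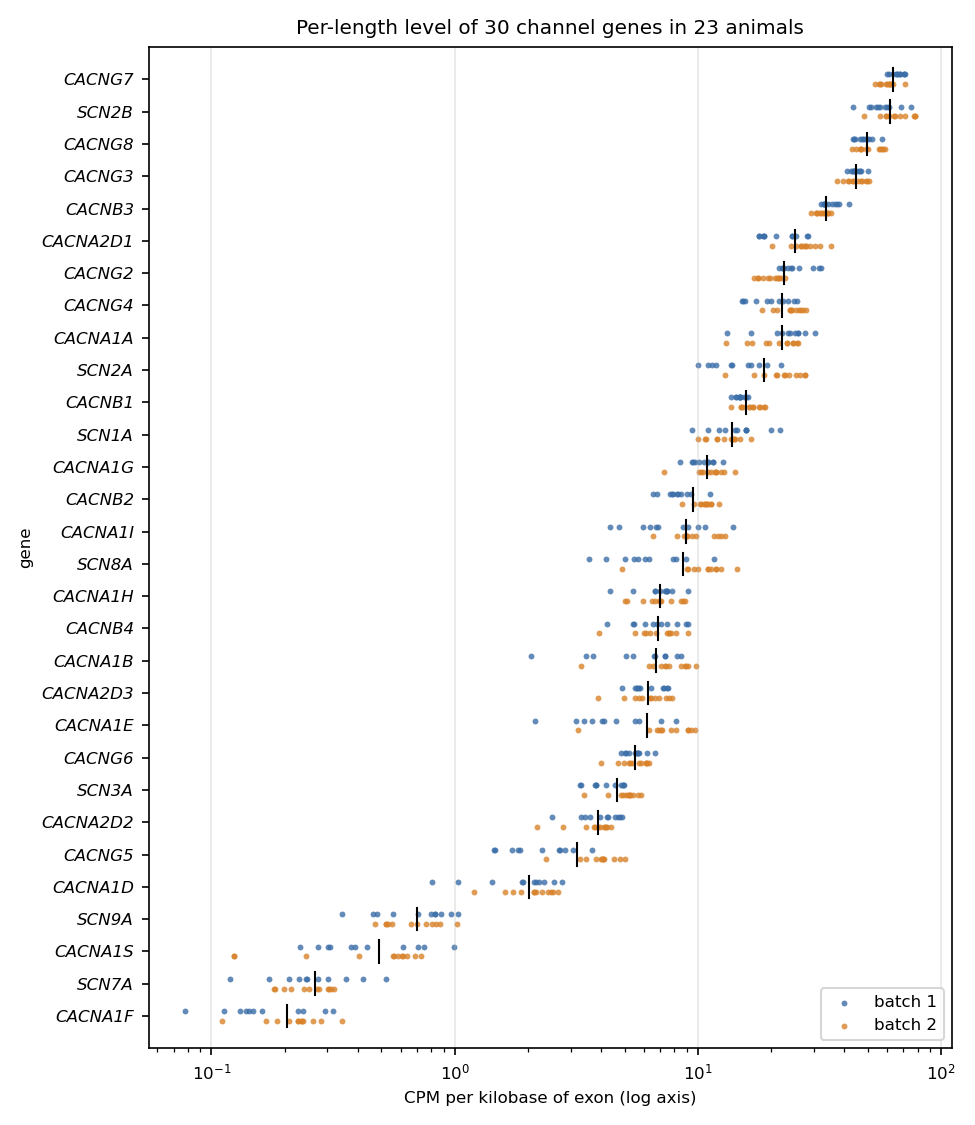
Per-length level of 30 of the channel genes (y axis) in CPM per kilobase of exon on a log axis (x axis). Each point is 1 of 23 animals, coloured by batch, and the black bar is the mean over all animals; CACNG7 lies at the top with 63.2 CPM per kilobase and CACNA1F at the bottom with 0.205.

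Neighbours in this order were mostly close. Among the genes plotted, 3 neighbouring pairs had mean ± 1 SD ranges that did not overlap: CACNG3 above CACNB3, CACNB3 above CACNA2D1 and CACNA1D above SCN9A. CACNG2, CACNG4 and CACNA1A, at 22.6, 22.2 and 22.1 CPM per kilobase, could not be ordered, since CACNG2 exceeded CACNG4 in 10 libraries and CACNG4 exceeded CACNA1A in 12. Below CACNA1D (2.02 ± 0.521 CPM per kilobase) lay the rare transcripts SCN9A (0.703), CACNA1S (0.489), SCN7A (0.267) and CACNA1F (0.205). These are best known outside the cortical neuron: SCN9A in peripheral sensory neurons, CACNA1S in skeletal muscle and CACNA1F in retina, while SCN7A encodes an atypical channel described as a sodium sensor. CACNA1S rested on 9.5 to 69.5 counts per library and CACNA1F on 5 to 30.

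Markers of those tissues were measured beside the rare channel genes. Of 3 retinal markers CRX was at 0 in every library, and the 3 summed to at most 0.278 CPM. Skeletal muscle markers with a match in the table were ACTA1 and CKM, together 40.8 to 68.1 CPM, and the matched sensory neuron markers summed to 0.558 to 3.62 CPM. The part of such cells in the levels of these channel genes was not tested. Among the 5 genes under the count minimum, SCN10A had 1 count in total over 23 libraries and CACNG1 had 14, while SCN4A, SCN11A and CACNA2D4 reached at most 10, 11 and 10 counts in any library. A count of 0 allows up to 3 counts, which is 0.161 to 0.316 CPM depending on the library; this covers counting error only.

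Within the sodium channel alpha subunits the per-length level was divided mainly between 3 genes. SCN2A, which encodes a channel of excitatory axons, made up 39.1% ± 4.40 of the summed alpha level (SD, n = 23). SCN1A, whose channel is prominent in fast-spiking interneurons, made up 30.2% ± 6.07, and SCN8A, found at mature axon initial segments and nodes of Ranvier, 17.9% ± 3.04. SCN3A, an alpha subunit that is strongest in the developing brain, contributed 10.01% ± 1.24. SCN9A and SCN7A made up 1.53% and 0.585% on average. SCN3A, SCN2A, SCN1A, SCN9A and SCN7A lie in this order on chromosome 15 of susScr11, from the start of SCN3A at 71717333 to the end of SCN7A at 73026656. The widest gap runs from the end of SCN2A at 71997507 to the start of SCN1A at 72529874. SCN8A is on chromosome 5 (chr5:16977701-17169541).

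Calcium channel pores were divided as follows. CACNA1A held 63.7% ± 7.17 of the level of the P/Q, N and R group (SD, n = 23), ahead of CACNA1B, the N-type pore of presynaptic terminals (18.9% ± 3.05), and CACNA1E, the R-type pore (17.4% ± 4.58). The T-type channels, which open near rest and support burst firing, were more evenly split, with CACNA1G at 41.0% ± 3.12, CACNA1I at 32.9% ± 5.01 and CACNA1H at 26.2% ± 3.39. In CPM not divided by length, CACNA1H was above CACNA1G, with means of 87.7 and 78.2. Their annotated exon lengths are 12559 and 7161 bases. CACNA1D was 74.2% ± 6.37 of the 3 L-type genes measured, without CACNA1C, the other L-type gene of brain. CACNA2D1, one of the alpha2delta subunits that gabapentin binds, held 70.9% ± 3.73 of the alpha2delta level, and CACNB3 51.3% ± 3.88 of the beta level. Among the gamma subunits CACNG7 took 29.9% ± 2.37, CACNG8 23.5% ± 1.84 and CACNG3 21.2% ± 1.16, while CACNG2, the stargazin gene, took 10.7% ± 1.79.

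Variation between animals differed widely between members. CACNG3, CACNG7, CACNB3 and CACNB1 were the steadiest, with coefficients of variation of 7.65%, 8.20%, 8.33% and 9.48% over 23 animals. CACNA1S (45.6%) and CACNA1E (36.9%) were among the most variable. CACNA1S is a low-count gene, whereas CACNA1E averaged 45.5 ± 16.8 CPM and ran from 15.8 to 71.7 CPM. SCN8A (35.2%), CACNG5 (34.3%), CACNA1B (30.7%) and SCN2A (29.5%) were also variable at moderate or high levels.

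Psilocybin against saline at 1 day gave no change in any member that passed the test. At a Benjamini-Hochberg adjusted p under 0.05, edgeR's quasi-likelihood test called 0 of 32 members, as it called 0 of all 15049 genes tested (0%). At an unadjusted p under 0.05 it listed 1 member, CACNA1G, or 3.12% of members against 2.83% of all genes. DESeq2 and limma-voom each listed 1. Shares of all genes at an unadjusted p, here and below, are those of edgeR only. The 2 treatment groups overlapped for every member, where 0.126% of all genes had groups that did not overlap. Fold changes of members ran from -0.20 to 0.38 on the log2 scale with a median of 0.040 and 23 positive, beside a median of 0.004 and 51.4% positive over all genes. Without the 3 libraries named above, 13 of 32 were positive and the median was -0.040 (all genes: median 0.009). The balance of signs thus turned, and of the 3 only saline 1 day animal 5 is in the 2 groups compared.

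CACNA1G encodes the T-type pore whose transcript was highest per kilobase of exon (chr12:26844079-26911746). In the saline 1 day animals it stood at 51.9, 67.6, 69.7, 75.1 and 84.3 CPM, and the psilocybin 1 day animals ran from 68.6 through a median of 83.8 to 102 CPM. The lowest saline value was animal 5, the library richest in ribosomal protein genes, and 3 of the other 4 saline animals lay within the range of the treated animals. Its log2 fold change was 0.27 ± 0.11 (SE; unadjusted p = 0.0224, adjusted p = 1.00). Without saline 1 day animal 5 the fold change was 0.17, and without saline 1 day animal 4 it was 0.34. Within batch 1 and batch 2 alone it was 0.16 and 0.35.

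CACNA1H, another T-type pore, had values of 64.5, 68.3, 74.5, 88.5 and 98.1 CPM after saline and 81.0 to 114 CPM (median 90.4) after psilocybin. The highest saline animal exceeded 4 of the 6 treated animals, and the fold change of 0.27 ± 0.15 (SE; adjusted p = 1.00) did not pass the test. Of its exon bases, 10.5% overlap an unnamed gene on the opposite strand. CACNA1I, the remaining T-type gene, had a fold change of 0.19, so all 3 T-type genes had positive values at 1 day, none past the threshold.

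A pair of gamma subunits completed the members with the smallest p at 1 day. CACNG5 (chr12:13288516-13328774), a TARP of the type II class, was at 6.65, 8.42, 10.7, 17.4 and 20.6 CPM after saline and at 8.29 to 22.8 CPM (median 15.6) after psilocybin. Its values separated by batch more than by treatment: the 5 batch 1 animals of both groups lay between 6.65 and 12.9 CPM, and 5 of the 6 batch 2 animals at 17.4 CPM or above. The fold change was 0.38 ± 0.20 (SE; adjusted p = 1.00), with 0.57 and 0.28 in batch 1 and batch 2 alone. CACNG4, a type I TARP, had 14.3, 14.5, 19.7, 22.4 and 22.6 CPM after saline and 14.1 to 25.2 CPM (median 22.8) after psilocybin, with a fold change of 0.22 ± 0.13 (SE; adjusted p = 1.00). Within batch 1 and batch 2 alone CACNG4 gave 0.37 and 0.15.

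**Figure D2:**
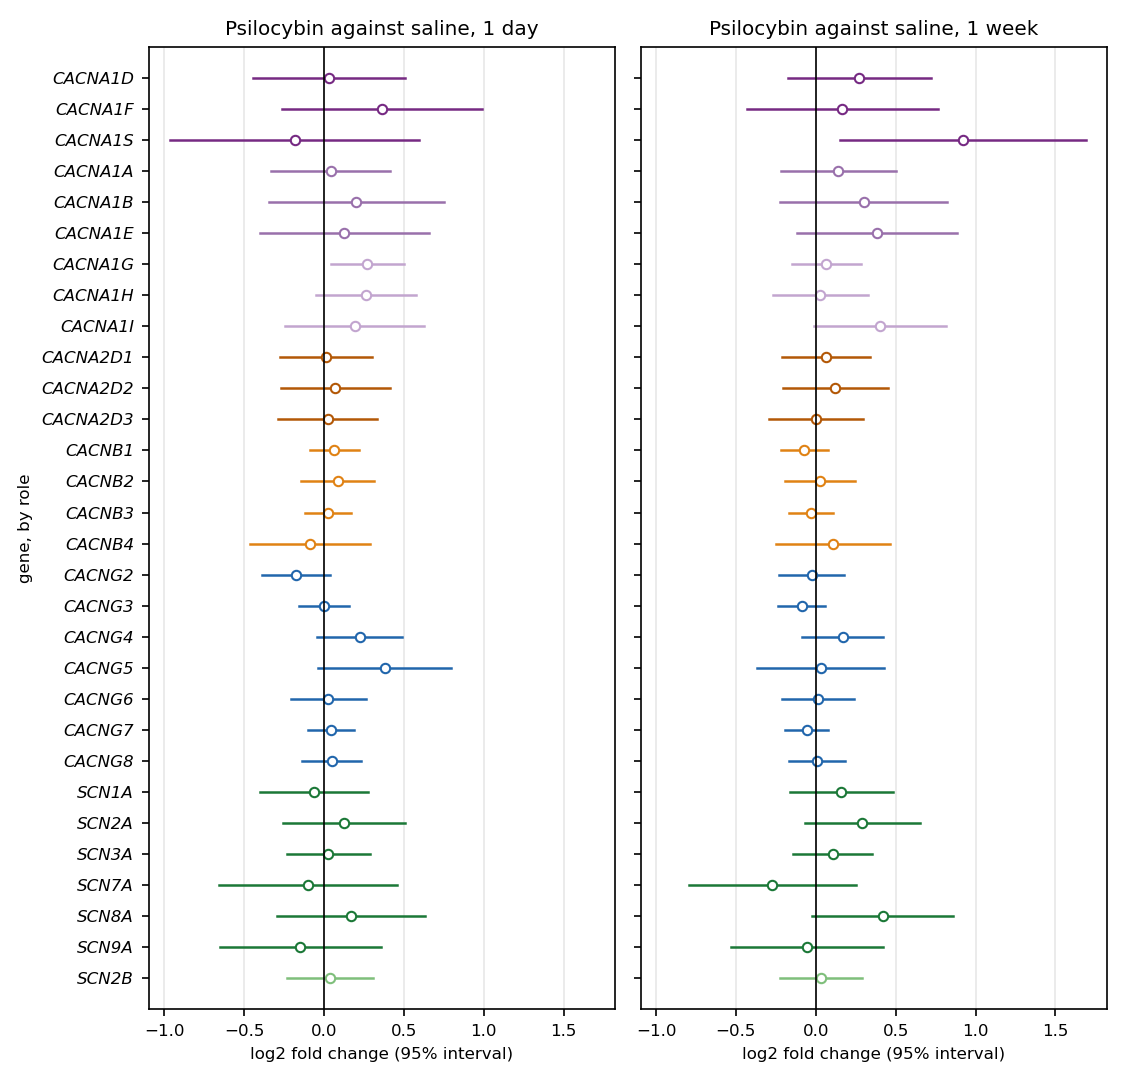
Log2 fold change of psilocybin against saline (x axis) for 30 of the channel genes (y axis, coloured by subunit role) at 1 day (left) and 1 week (right). Points are edgeR estimates and lines their 95% intervals; all points are open, meaning that none of those plotted had an adjusted p under 0.05 at either time.

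The intervals show what size of change these groups could have missed. At 1 day the 95% interval lay wholly within a 2-fold change in either direction for 32 of 32 members and within a 1.5-fold change for 22. SCN1A, SCN2A and SCN8A had fold changes of -0.06, 0.12 and 0.17, and CACNA1A, CACNA1B and CACNA1E of 0.04, 0.20 and 0.13. For CACNB3, one of the steadiest genes, the estimate was 0.03. Astrocyte markers were positive for 7 of 7 genes at 1 day, with a median of 0.19 and none called, and pan-neuronal markers for 1 of 5 with a median of -0.07. Excitatory neuron markers were positive for 3 of 6 (median -0.035) and inhibitory for 4 of 8 (median 0.063). Blood markers were positive for 2 of 2 (median 0.69). Oligodendrocyte precursor markers were positive for 5 of 5, endothelial for 3 of 3 and mural for 4 of 5. Oligodendrocyte markers were positive for 2 of 5 and microglial for 2 of 6. Astrocyte markers were also positive for 7 of 7 between 1 week and 1 day after saline (median 0.21). The part of these cell types in the channel gene values was not tested.

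At 1 week again no member passed the test. The quasi-likelihood test of edgeR called 0 of 32 members and 0 of 15049 genes (0%) at an adjusted p under 0.05. At an unadjusted p under 0.05 it listed 1 member, CACNA1S, beside 1.99% of all genes. By their own p, limma-voom listed 1 and DESeq2 3 (CACNA1S, CACNA1I and SCN8A), for which no share of all genes is given here. No member had groups without overlap, as against 0.0465% of all genes. Fold changes ran from -0.27 to 0.92 with a median of 0.065 and 24 of 32 positive (all genes: median -0.003, 48.8% positive), and without the 3 libraries the median was 0.060 with 24 positive. The interval lay within a 2-fold change for 30 members and within 1.5-fold for 22.

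CACNA1S (chr10:23503731-23567797) had the largest fold change of the family at 1 week and is among its rarest transcripts. After saline the 6 values ran from 0.713 through a median of 1.66 to 4.18 CPM, and after psilocybin from 2.15 through 3.59 to 5.71 CPM. Saline animal 6, at 4.18 CPM, exceeded all but 1 of the treated animals, while 4 of the 6 saline animals lay under every treated one. The fold change was 0.92 ± 0.37 (SE; unadjusted p = 0.0206, adjusted p = 1.00), with 1.07 and 0.78 within batch 1 and batch 2. Both muscle markers tested were lower after psilocybin at this time, with a median fold change of -0.13, and neither was called; their part in the CACNA1S values was not tested.

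CACNA1I, SCN8A and SCN2A followed in order of p at 1 week. CACNA1I ran from 28.1 through a median of 55.4 to 68.9 CPM after saline and from 44.2 through 69.8 to 89.9 CPM after psilocybin, with a fold change of 0.40 ± 0.20 (SE; adjusted p = 1.00). SCN8A ran from 25.7 through 61.0 to 79.8 CPM after saline and from 39.5 through 76.0 to 105 CPM after psilocybin, a fold change of 0.42 ± 0.21 (SE; adjusted p = 1.00). SCN2A (chr15:71864673-71997507) ran from 74.9 through 131 to 157 CPM after saline and from 85.6 through 162 to 206 CPM after psilocybin, a fold change of 0.29 ± 0.18 (SE; adjusted p = 1.00). In all 3 genes the lowest animal of each group came from batch 1, numbered 1 in both groups, and the groups overlapped through most of their range. Without psilocybin 1 week animal 2, the library with the highest share of channel gene counts (0.360%), the fold changes were 0.25, 0.28 and 0.19 in the same order. Without saline 1 week animal 2 they were 0.57, 0.53 and 0.39. Within batch 1 and batch 2 they were 0.50 and 0.30 for CACNA1I, 0.55 and 0.29 for SCN8A, and 0.26 and 0.33 for SCN2A.

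**Figure D3:**
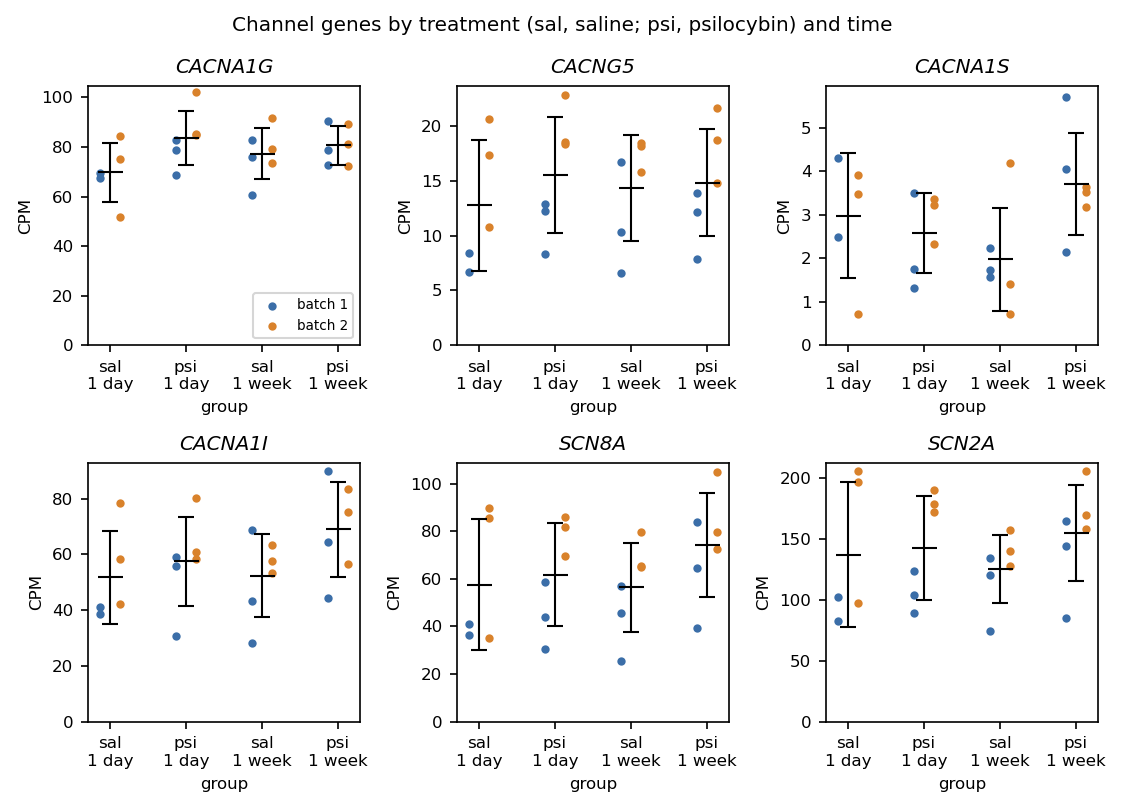
Level in CPM (y axis) of 6 channel genes with small p in the comparisons of psilocybin with saline, by group (x axis), 1 point per animal coloured by batch; the black bar is the mean and its whiskers 1 SD (n = 5 in saline 1 day, 6 elsewhere). The groups overlap in every panel, and for CACNG5, SCN8A and SCN2A the batch 2 points lie mostly above the batch 1 points of the same group.

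By role at 1 week, all 9 calcium channel alpha1 genes had positive fold changes, with medians of 0.27 for the L-type, 0.30 for the P/Q, N and R group and 0.07 for the T-type. The 3 alpha2delta genes ran from 0.00 to 0.12. The beta and gamma subunits lay around zero, with 2 of 4 and 4 of 7 positive and medians of -0.003 and 0.009. Of the sodium channel alpha genes 5 of 7 were positive, with SCN7A at -0.27 and SCN8A at 0.42, and SCN2B was at 0.03. None of these counts rests on a member that passed the test. Cell type markers at 1 week were positive for 0 of 5 oligodendrocyte genes (median -0.21), 6 of 6 microglial genes (median 0.07), 4 of 7 astrocyte genes (median 0.01, with 2 at an unadjusted p under 0.05) and 2 of 5 pan-neuronal genes (median -0.02), none of them called. Excitatory neuron markers were positive for 3 of 6 (median -0.026) and inhibitory for 5 of 8 (median 0.02). The part of these cell types in the values of the channel genes was not tested.

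For the remaining genes, each 95% interval covers the effect of psilocybin on that gene alone and is not adjusted for the number of genes. SCN1A averaged 116 ± 20.3 CPM in saline 1 day animals (SD, n = 5), 112 ± 14.6 in psilocybin 1 day animals, 115 ± 31.9 in saline 1 week animals and 129 ± 32 in psilocybin 1 week animals (n = 6 each). Its 95% intervals for psilocybin against saline were -0.40 to 0.27 on the log2 scale at 1 day and -0.16 to 0.48 at 1 week. CACNA1A averaged 164 ± 51.9, 169.8 ± 26.2, 169 ± 37.0 and 187 ± 32.2 CPM in the same order of groups, with intervals of -0.33 to 0.42 and -0.21 to 0.50. The 5 narrowest intervals at each time were those of CACNG7, CACNB3, CACNB1, CACNG3 and CACNG8. CACNG3, a TARP gene that averaged 185 ± 14.1, 185 ± 20.1, 183 ± 8.12 and 172 ± 9.31 CPM, had intervals of -0.16 to 0.15 at 1 day and -0.24 to 0.06 at 1 week, and CACNG8 had -0.14 to 0.23 and -0.17 to 0.18. CACNA1F, the retinal L-type gene at 1.02 ± 0.315 to 1.34 ± 0.481 CPM across groups, had among the widest, -0.27 to 0.99 and -0.43 to 0.76. CACNA2D2, CACNA2D3, CACNB4, CACNG6, SCN7A and SCN9A had fold changes between -0.15 and 0.07 at 1 day and between -0.27 and 0.12 at 1 week, all with an adjusted p of 1.00.

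The effect of psilocybin at 1 week was then compared with that at 1 day. The test of this difference called 0 of 32 members and 0 of all genes (0%). At an unadjusted p under 0.05 edgeR listed 1 member, beside 2.02% of all genes. DESeq2 listed 1 member and limma-voom 0. The 2 effects were measured in different animals and share no controls. The difference was positive for 17 members with a median of 0.051, and for 20 with a median of 0.101 without the 3 libraries. Over all genes 50.3% were positive (median 0.001), and 47.4% (median -0.011) without the 3 libraries. CACNA1S had the smallest p, with a difference of 1.11 ± 0.53 on the log2 scale (SE; unadjusted p = 0.0475, adjusted p = 1.00), set by fold changes of -0.18 at 1 day and 0.92 at 1 week. CACNA1G differed by -0.20 ± 0.15 and CACNB1 by -0.14 ± 0.10, both with an adjusted p of 1.00. CACNA1G and CACNB1 gave -0.10 and -0.07 without saline 1 day animal 5, and -0.27 and -0.19 without saline 1 day animal 4. Within batch 1 and batch 2 the differences were 1.68 and 0.64 for CACNA1S, -0.02 and -0.36 for CACNA1G, and -0.06 and -0.20 for CACNB1. CACNB1, a cytoplasmic beta subunit, spanned no more than 98.3 to 136 CPM in all animals.

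Time since injection was compared within each treatment. Between 1 week and 1 day after saline, edgeR called 0 of 32 members and 0 of all genes (0%), with 0 members at an unadjusted p under 0.05 in edgeR, DESeq2 and limma-voom and 2.01% of all genes in edgeR. Between the same times after psilocybin it again called 0 of 32 and 0 of all genes (0%). At an unadjusted p under 0.05 there were 0 members by any of the 3 tools, beside 3.18% of all genes in edgeR. After saline 20 members were positive with a median of 0.037, and 16 with a median of -0.004 without the 3 libraries. Over all genes 51.7% were positive (median 0.004), and 53.2% (median 0.009) without the 3 libraries. After psilocybin 21 members were positive with a median of 0.071, and 24 with a median of 0.113 without the 3 libraries. For all genes these values were 54.3% (median 0.012) and 51.9% (median 0.006). These comparisons share their animals with the treatment comparisons above.

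After saline, CACNA1S had the smallest p, at 0.707, 2.5, 3.47, 3.92 and 4.30 CPM at 1 day against the 1 week values given above, a fold change of -0.61 ± 0.39 (SE; adjusted p = 1.00). Without saline 1 week animal 6 this was -0.99, and without saline 1 week animal 4 it was -0.41. CACNG2, the stargazin gene, stood at 114, 124, 132, 150 and 181 CPM at 1 day and at 111 to 141 CPM (median 127) at 1 week, a fold change of -0.15 ± 0.10 (SE; adjusted p = 1.00) that was -0.10 without saline 1 day animal 1. CACNG2 gave -0.19 without saline 1 week animal 4. CACNG5 gave 0.29 ± 0.20 and CACNA1G 0.16 ± 0.11 (SE; adjusted p = 1.00 for both). The value for CACNG5 was 0.12 without saline 1 week animal 2 and 0.45 without saline 1 day animal 4. CACNA1G was 0.06 without saline 1 day animal 5 and 0.22 without saline 1 day animal 4. Within batch 1 and batch 2 the values were -0.86 and -0.46 for CACNA1S, -0.28 and -0.07 for CACNG2, 0.58 and 0.08 for CACNG5, and 0.09 and 0.18 for CACNA1G.

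After psilocybin the smallest p belonged to CACNB1, with 107 to 136 CPM (median 112) at 1 day and 103 to 117 CPM (median 107) at 1 week, a fold change of -0.12 ± 0.07 (SE; adjusted p = 1.00). CACNA1D, the L-type pore with a low activation threshold, ran from 7.28 through a median of 14.2 to 17.2 CPM at 1 day and from 13.2 through 17.1 to 19.6 CPM at 1 week. Its fold change of 0.35 ± 0.22 (SE; adjusted p = 1.00) was 0.23 without psilocybin 1 day animal 1, the lowest library. Without psilocybin 1 day animal 5 it was 0.42. CACNB3 gave -0.11 ± 0.07 and SCN8A 0.30 ± 0.21 (SE; adjusted p = 1.00 for both), and these were -0.07 without psilocybin 1 day animal 1 and 0.16 without psilocybin 1 week animal 2. CACNB3 gave -0.155 without psilocybin 1 week animal 1, and SCN8A 0.39 without psilocybin 1 day animal 3. Within batch 1 and batch 2 alone the values were -0.08 and -0.18 for CACNB1, 0.53 and 0.15 for CACNA1D, -0.13 and -0.11 for CACNB3, and 0.49 and 0.10 for SCN8A.

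The batches, in contrast, differed in 12 of the 32 members at an adjusted p under 0.05, or 37.5%, where 32.9% of all genes were called (2428 higher and 2527 lower in batch 2). A share this close to the background is not a result about channel genes as a class. At an unadjusted p under 0.05 there were 16 members, beside 43.6% of all genes. Higher in batch 2 were 9 members (CACNG5, CACNA1E, SCN8A, SCN2A, CACNB2, CACNA2D1, CACNG4, SCN3A and CACNB1), and lower were 3, among them CACNG2 and CACNG7. No member had batches without overlap, as against 0.545% of all genes. Without the 3 libraries named above 16 members were called (50.0%), with CACNA1G, CACNA1I, SCN2B and CACNA1B added, and the share of all genes called rose as well, to 38.4%.

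CACNG2 ran from 125 through 139 to 184 CPM in batch 1 and from 97.7 through 117 to 131 CPM in batch 2, and fell by 0.36 ± 0.07 on the log2 scale (SE; adjusted p = 0.000814). CACNG7 was lower by little, with means of 255.8 ± 14.4 CPM and 232 ± 17.5 CPM (SD) and a log2 change of -0.14 ± 0.05 (SE; adjusted p = 0.0308). This call was lost in 11 of 30 alternatives, with adjusted p from 0.0105 to 0.153 over all 30: under RLE scaling, without a filter on low counts, and without any 1 of psilocybin 1 day animals 1, 4 and 6, psilocybin 1 week animals 1, 4 and 6, saline 1 day animals 3 and 4, and saline 1 week animal 1.

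Of the 7 sodium channel alpha genes, 3 were called between batches, all higher in batch 2. SCN2A ran from 74.9 through a median of 104 to 165 CPM in batch 1 and from 97.2 through 171 to 206 CPM in batch 2, a rise of 0.59 ± 0.13 (SE; adjusted p = 0.00165). SCN8A ran from 25.7 through 44.0 to 83.9 CPM and from 35.1 through 79.6 to 105 CPM, a rise of 0.71 ± 0.16 (SE; adjusted p = 0.00190). The batches overlapped for both genes, with psilocybin 1 week animal 2 the highest of batch 1 and saline 1 day animal 5 the lowest of batch 2. SCN3A rose by 0.26 ± 0.09 (SE; adjusted p = 0.0243), from a median of 36.1 to 44.4 CPM. SCN1A, on the same chromosome as SCN2A and SCN3A, did not pass the test at -0.19 ± 0.11 (SE, adjusted p = 0.211), with medians of 124 and 113 CPM.

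Calcium channel genes higher in batch 2 covered 4 of the 6 roles. CACNG5 rose by 0.80 ± 0.14 (SE; adjusted p = 0.000361), from a median of 10.3 CPM (range 6.60 to 16.7) to 18.4 CPM (10.7 to 22.8). CACNA1E rose by 0.72 ± 0.18 (SE; adjusted p = 0.00410), from 30.3 CPM (15.8 to 59.9) to 54.6 CPM (23.6 to 71.7), which places batch beside the wide spread of this gene described above. CACNB2 rose by 0.36 ± 0.08, CACNA2D1 by 0.33 ± 0.10, CACNG4 by 0.28 ± 0.09 and CACNB1 by 0.15 ± 0.05, with medians in batch 1 and batch 2 of 20.5 and 26.7 CPM, 178 and 234 CPM, 18.5 and 22.6 CPM, and 107 and 119 CPM. The call for CACNB1 was lost without psilocybin 1 day animal 4 or saline 1 day animal 1 (adjusted p = 0.0513 and 0.0595). None of the L-type or T-type genes was called, although all 6 had positive values, up to 0.35 for CACNA1I.

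**Figure D4:**
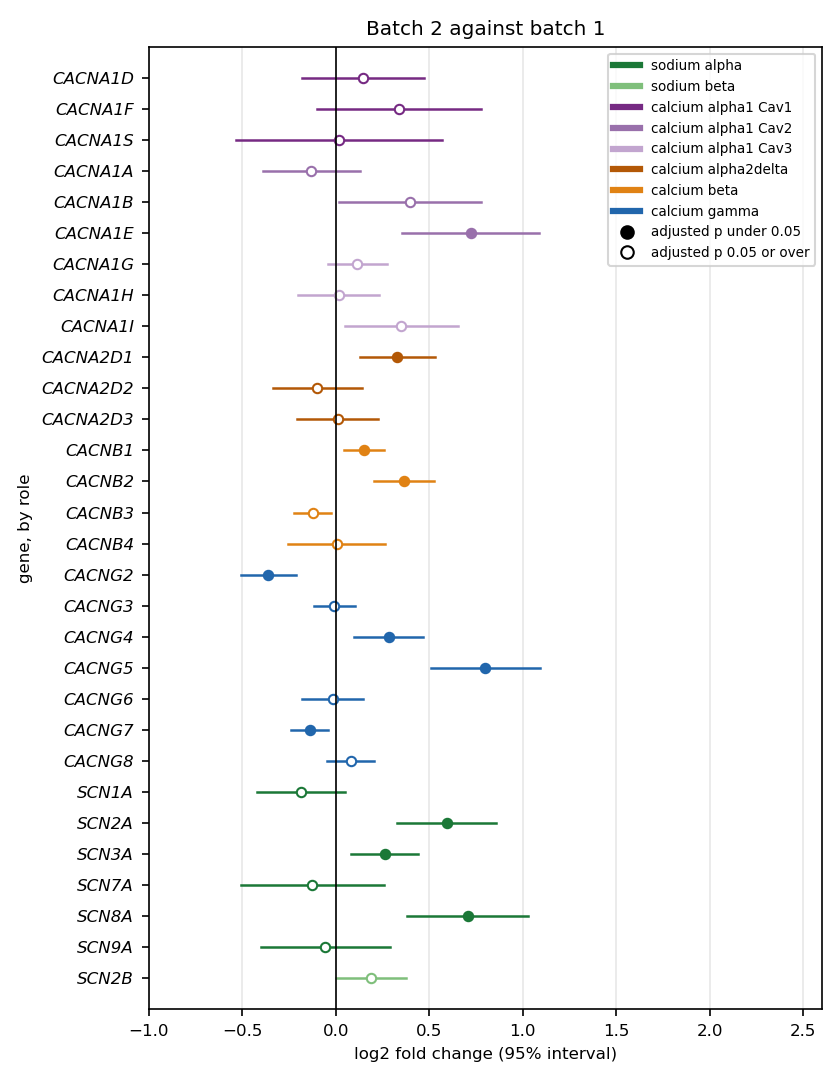
Log2 fold change of batch 2 against batch 1 (x axis) for 30 of the channel genes (y axis), coloured by subunit role (Cav1 is L-type, Cav2 the P/Q, N and R group, Cav3 T-type), with 95% intervals. Filled points have an adjusted p under 0.05 (11 genes, 9 to the right of zero and 2 to the left); among them CACNG2 at -0.36 and CACNG5 at 0.80 are the extremes.

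Ratios between members within a library do not depend on how libraries were scaled, and the 3 pairs given here, of 9 computed, were chosen after their values were seen, so they are given without a test. SCN1A stood at 1.02 ± 0.161 times the per-length level of SCN2A in batch 1 (SD, n = 11) and at 0.598 ± 0.107 times in batch 2 (SD, n = 12). The lowest ratio in batch 1 was 0.822 and the highest in batch 2 was 0.797, so the batches did not overlap, as in 1 of the 9 pairs, and SCN1A exceeded SCN2A in 4 libraries of batch 1 and in 0 of batch 2. SCN8A to SCN2A, in contrast, was 0.438 ± 0.0547 in batch 1 and 0.473 ± 0.0507 in batch 2, over ranges that overlapped almost fully. CACNA1E to CACNA1A was 0.201 ± 0.0574 in batch 1 and 0.360 ± 0.0689 in batch 2. In 3 libraries of batch 2 (saline 1 day animal 5, the lowest, and saline 1 week animals 4 and 6) the CACNA1E to CACNA1A ratio lay within the range of batch 1, which reached 0.295.

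**Figure D5:**
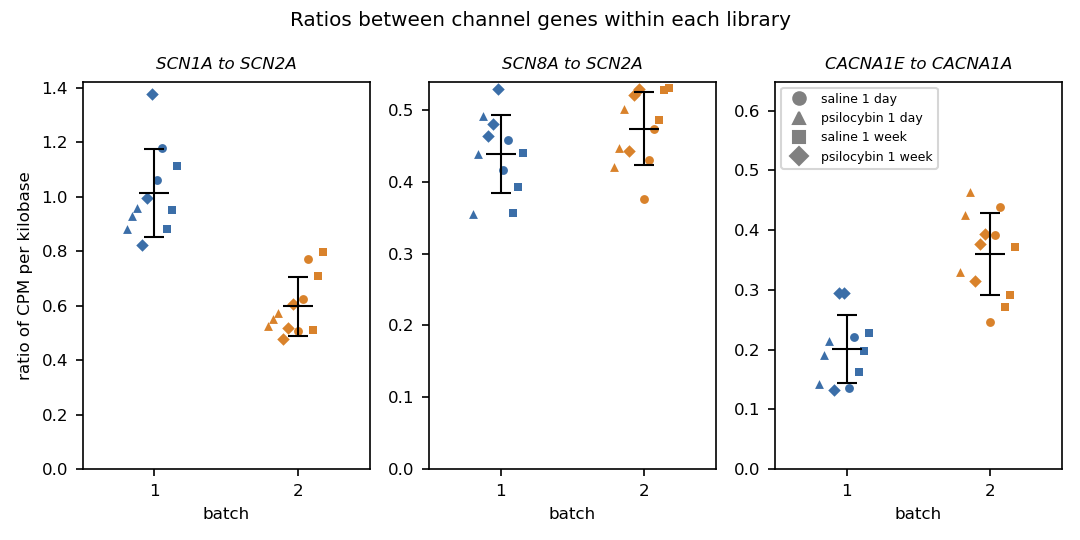
Ratio of the per-length levels of pairs of channel genes within each library (y axis, starting at 0) in batch 1 and batch 2 (x axis). Each symbol is 1 library, with shapes for the 4 groups, and bars give mean and SD (n = 11 and 12); the SCN1A to SCN2A ratio does not overlap between batches, while that of SCN8A to SCN2A does.

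Exon length moved with batch across all genes. The median fold change of batch 2 against batch 1 was -0.14 for genes with up to 2 kb of exon, -0.05 for 2 to 4 kb, 0.00 for 4 to 6 kb, 0.05 for 6 to 8 kb and 0.09 above 8 kb. SCN2A, SCN8A and CACNA1E, which rose, have 7511, 7222 and 7358 bases of exon. Members did not follow length throughout: CACNG4 and CACNB2 rose with 930 and 2497 bases, and SCN1A and CACNA1A had values of -0.19 and -0.13 with 8510 and 7825. Batch also moved with some lists of cell type markers, where 32.9% of all genes were called. Oligodendrocyte and endothelial markers had 0 of 5 and 0 of 3 called. All 6 microglial markers tested were lower in batch 2 (6 of 6 called, median -0.50), 4 of 7 astrocyte markers were called and higher, and of 5 pan-neuronal markers 2 were called higher and 2 lower. Both blood markers tested were called lower, with a median of -1.585. The mitochondrial share of counts ran from 9.73% through a median of 13.8% to 15.6% in batch 1 and from 7.08% through 11.1% to 14.9% in batch 2. The part of length, mitochondrial share and cell makeup in the batch differences of the channel genes was not tested.

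Genes whose products bind or regulate these channels were taken from a list of 39, of which 33 were tested. The list holds fibroblast growth factor homologous factors, ankyrins and other axonal scaffolds, calmodulins and kinases, small GTPases that inhibit calcium channels, and the leak channel NALCN with its auxiliary proteins. At 1 day 16 of the 33 were positive with a median of -0.02, 0 were called and 1 had an unadjusted p under 0.05. The 3 with the smallest p were RIMS2, a presynaptic scaffold that binds calcium channels (-0.19 ± 0.08), CALM2, a calmodulin gene (-0.32 ± 0.16), and FGF12, a modulator of sodium channel inactivation (-0.11 ± 0.08; SE, adjusted p = 1.00 for each). CALM2 was at -0.09 without saline 1 day animal 5 and at -0.40 without saline 1 day animal 3.

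At 1 week 18 of the 33 partners were positive with a median of 0.01, 0 were called and 1 had an unadjusted p under 0.05. The smallest p belonged to RRAD, a small GTPase that inhibits calcium channels (-0.53 ± 0.23), UNC80, an auxiliary protein of NALCN (0.34 ± 0.21), and ANK2, the ankyrin-B gene (0.38 ± 0.23; SE, adjusted p = 1.00 for each). RRAD averaged 1.65 CPM and gave -0.18 and -0.94 within batch 1 and batch 2. ANK2 gave 0.25 without psilocybin 1 week animal 2, the same library that moved SCN8A and SCN2A. Without saline 1 week animal 2 it gave 0.53. Between batches 16 of the 33 partners were called (48.5%, beside 32.9% of all genes), 10 higher and 6 lower in batch 2. ANK2 rose by 0.88 ± 0.17 (SE; adjusted p = 0.000805), beside the rises of 0.71 and 0.59 given for SCN8A and SCN2A.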

How the data were processed

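The deposited table holds estimated counts per Ensembl gene for 23 libraries, made by the authors with featureCounts. Per the submitters' processing notes, fastp 0.20.0, STAR 2.6c and featureCounts 1.5.1 were used with the pig build susScr11. Per the file headers, reads overlapping several genes were shared in fractions and strand was ignored, so 72.2% of values were whole (tolerance 0). Values were rounded to whole counts here, which moved no library total by more than 0.0013%. Symbols matched 14857 of 25880 gene identifiers. Of the 32 members, 8 share exon bases with another gene, 7 of them on the opposite strand, and their counts are uncertain to that extent. Gene positions are spans of the exons listed in the table.

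Genes were kept with filterByExpr (minimum count 10, minimum total 15), leaving 15049. Two-sided tests came from edgeR 4.0.16 (glmQLFit and glmQLFTest, its quasi-likelihood method) in R 4.3.3, with TMM scaling, 4 group terms and a batch term in 1 model. P-values were adjusted by Benjamini-Hochberg over all 15049 genes, with a threshold of 0.05. Standard errors were derived here, as the size of the fold change divided by the square root of the F statistic. Intervals were built from these standard errors with a t quantile. Levels are CPM scaled by the TMM factors. Levels per kilobase, and the shares and ratios built on them, depend on annotated exon lengths, from 930 to 12559 bases among members. The animal identifiers in the labels are not shared between groups, so nothing was paired. The animal numbers used here only count animals within a group. Named were the 4 members with the smallest p in each of 6 comparisons, every member with an adjusted p under 0.05, the highest member per kilobase in each role and the 3 most variable, except that 2 members are counted in the totals but not reported individually here. Partner genes were named by the 3 smallest p in each comparison of psilocybin with saline. The members, the partner list, the marker lists and the alternatives were chosen with earlier results of these data known. Alternatives were RLE scaling, other filters, DESeq2 1.42.0, limma-voom (limma 3.58.1), a fit without robust options, no batch term, compared groups alone, each batch alone and leaving out each animal. Leaving out the 3 libraries highest in ribosomal protein genes was added after the data were seen. The fit was tested on simulated data.

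Marker lists were checked for 14 cell types and tissues. Between batches, called genes of those tested were 4 of 5 for neurons, 3 of 6 for excitatory and 3 of 8 for inhibitory neurons, 4 of 7 for astrocytes, 0 of 5 for oligodendrocytes, 2 of 5 for their precursors, 6 of 6 for microglia, 0 of 3 for endothelium, 1 of 5 for mural cells, 1 of 2 for skeletal muscle, 0 of 2 for cardiac muscle, 0 of 1 for sensory neurons and 2 of 2 for blood. No retinal marker was tested. The share of all genes called between batches was 32.9%. In the comparisons of treatment no marker was called.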

Additional observations from a re-analysis of the deposited data

Results flagged for a closer look

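Of 128 sets of values (32 members in 4 groups), 6 held an animal far from the rest of its group by Dixon's criterion at the 95% level; chance flags about 1 set in 20. CACNA1A, the P/Q-type pore, was at 125 CPM in psilocybin 1 week animal 6, where the other animals of the group lay between 187 and 216. CACNA1B, the N-type pore, was at 14.6 CPM in saline 1 week animal 1, against 46.3 to 60.4. CACNA1F was at 0.461 CPM in psilocybin 1 day animal 1, against 1.34 to 1.67. CACNA2D1 was at 159 CPM in psilocybin 1 week animal 1, against 215 to 239, and in the same library CACNG2 was the highest of its group at 184 CPM, against 97.7 to 130. CACNG6 was at 10.6 CPM in psilocybin 1 day animal 5, against 14.6 to 16.4. The first 2 of these libraries are among the 3 with the highest share of counts in ribosomal protein genes.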

How the results depend on the processing

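No paired analysis was possible because the groups share no animal identifiers. Over all alternatives the count of channel genes called stayed at 0 in the 5 comparisons of treatment and time, and at 10 to 16 between batches, where the count of all genes called ran from 3850 to 5799. Fold changes were recomputed for 38 pairs of gene and comparison, picked for a small p or a call between batches. Of the 1240 values this gave, 0 reversed, 1227 stayed on their side of the threshold and 13 batch calls were lost. The lost calls were 11 for CACNG7 (adjusted p up to 0.153, without a filter on low counts) and 2 for CACNB1 (0.0513 without psilocybin 1 day animal 4 and 0.0595 without saline 1 day animal 1). Members outside these pairs did change sign. At 1 day 23 of 32 were positive with all libraries, and 13 without the 3 highest in ribosomal protein genes. Among all genes, DESeq2 called 1 gene (LXN, no channel gene) between 1 week and 1 day after saline and 1 (CENPF, no channel gene) after psilocybin. Leaving out each animal gave 0 to 1 gene in each of these comparisons, LXN without psilocybin 1 day animal 4 and CENPF without psilocybin 1 week animal 6. LXN and CENPF are named because their values were seen, and the cause was not tested. Depth limits CACNA1S, SCN7A and CACNA1F most, which had as few as 5 to 10 counts in a library.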
